A study of Canis lupus familiaris with 25 samples.

Results

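The genes described here are 100 genes of the canine lymphoma transcriptome that stood far higher in a single dog than in any other. They were chosen by the measured counts themselves. Counts were divided by the library total and expressed per 1000000 counts (CPM), and only the 6361 of 32704 genes that reached at least 50 CPM in some dog (the eligible genes) were considered. Members were the 100 eligible genes with the largest gap between the highest and the second-highest dog on the log2(CPM + 1) scale. This gap is therefore a description and not a result, and it has no test. Genes are given by Ensembl identifier, because the files hold no names and 0 of the 32704 identifiers matched the reference table of gene symbols used here. For the same reason the lymphoid, myeloid and other cell markers could not be looked up, so the labelled tumour type was not checked against markers.

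The samples were fine needle aspirates of enlarged lymph nodes, taken from 25 pet dogs with naturally occurring lymphoma before CHOP chemotherapy, 1 library per dog. A single injection of prednisone was the only prior treatment that the study allowed. By the labels 17 dogs had B-cell lymphoma (5 with short and 12 with long survival), 3 had T-cell lymphoma (1 short, 2 long) and 5 were of unknown immunophenotype (2 short, 3 long). The study's own tally of immunophenotypes differs from the labels, so a dog counted here as B-cell may be of unknown immunophenotype. There were no healthy nodes and no repeat libraries, so every spread given here is a spread between dogs. The 3 T-cell dogs and the 5 dogs of unknown immunophenotype all carry odd numbers above 12 after the letter S of their sample names (the odd series), as do 6 B-cell dogs, and the other 11 B-cell dogs carry numbers up to 12 (the consecutive series). What this number stands for is not given in the sources used here. T-cell label and series can therefore be told apart only within the odd series. The paper describes 2 clusters of its samples that followed the technician who isolated them, and proposes that some batch effects exist. Which dogs each technician handled is not given in the sources used here, so this batch could not be taken into account.

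A lymphoma grows from a clone of lymphocytes. Each clone carries its own rearranged antigen receptor genes, so gene segments used by that clone are transcribed in its tumour and scarcely in the tumours of other animals. Tumours can also transcribe genes that lymphocytes normally keep silent, and an aspirate brings along other cells of the node and its surroundings. In such bulk samples a change in the share of a cell type and a change in RNA per cell cannot be told apart. Which of the members belong to any of these kinds is not known here, since the identifiers carry no names.

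Totals ran from 9592039 to 28979456 counts per dog (median 19264485), so that 1 count was worth between 0.0345 and 0.104 CPM. Dog 029A had the smallest library and dog 036A the next, with 12500534 counts. The columns of dogs 024A and 037A differ between the count table and the table of FPKM values (fragments per kilobase of transcript, scaled to the mapped reads). Over the 100 members, after each gene's mean was subtracted on the log2 scale, the correlation between the tables was 0.516 in dog 024A and 0.463 in dog 037A. In the other 23 dogs it lay between 0.558 (dog 006) and 0.980 (dog 008). These correlations run across genes, which are not independent replicates.

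The 100 members had a median gap of 3.24 and a range of 2.51 to 7.77, against a median gap of 0.20 over all eligible genes. The highest dog had between 51.5 and 1145 CPM (median 115), and the second-highest dog between 1.15 and 179 CPM (median 9.11). As a ratio of CPM the highest dog exceeded the second by 5.88 to 316 times, with a median of 10.1.

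The members differed in how low they were elsewhere. In no member did all 24 other dogs lie under 1 CPM, and 65 members had counts in all 25 dogs. The second dog was under 2 CPM for 6 members, under 5 CPM for 24 and under 10 CPM for 52, and it had at least 50 CPM for 10. The median of the other 24 dogs was under 1 CPM for 45 members and at least 10 CPM for 9. "Switched on" therefore describes part of the set only, and the 9 were well counted in most dogs and higher still in a single one. ENSCAFG00000012427 is an example of these 9, with 385 CPM in dog 030A (B-cell) and 25.7 to 59.5 CPM (median 39.9) in the other 24 dogs.

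At the edge of the set, ENSCAFG00000018207, ENSCAFG00000007277 and ENSCAFG00000016330 were the last included, with gaps of 2.53, 2.51 and 2.51. The next genes outside had gaps of 2.49, 2.49 and 2.46, and all 3 were highest in dog 036A. The set thus cuts through a continuous range of gaps.

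The members were spread unevenly over the dogs. Dog 036A (T-cell, long survival) was highest for 41 members, dog 008 (B-cell, long) for 16, dog 028A (T-cell, short) for 12 and dog 034A (B-cell, long) for 7. These 4 dogs accounted for 76 members. Dogs 029A, 030A and 035A were highest for 4 each, and 9 other dogs for 1 or 2 each, which makes 16 dogs in all. The remaining 9 dogs were highest for none, among them the T-cell dog 038A and dog 037A. By immunophenotype, 53 members were highest in a T-cell dog, 41 in a B-cell dog and 6 in a dog of unknown immunophenotype, where all eligible genes were divided as 27.2%, 54.6% and 18.3%. The T-cell count came from 2 of the 3 dogs, while 11 of 17 B-cell dogs and 3 of 5 unknown dogs held at least 1 member. By survival class 72 members were highest in a dog with long survival and 28 in a dog with short survival, against 55.5% and 44.5% of eligible genes. The odd series held 75 and the consecutive series 25, against 63.7% and 36.3%.

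**Figure D1:**
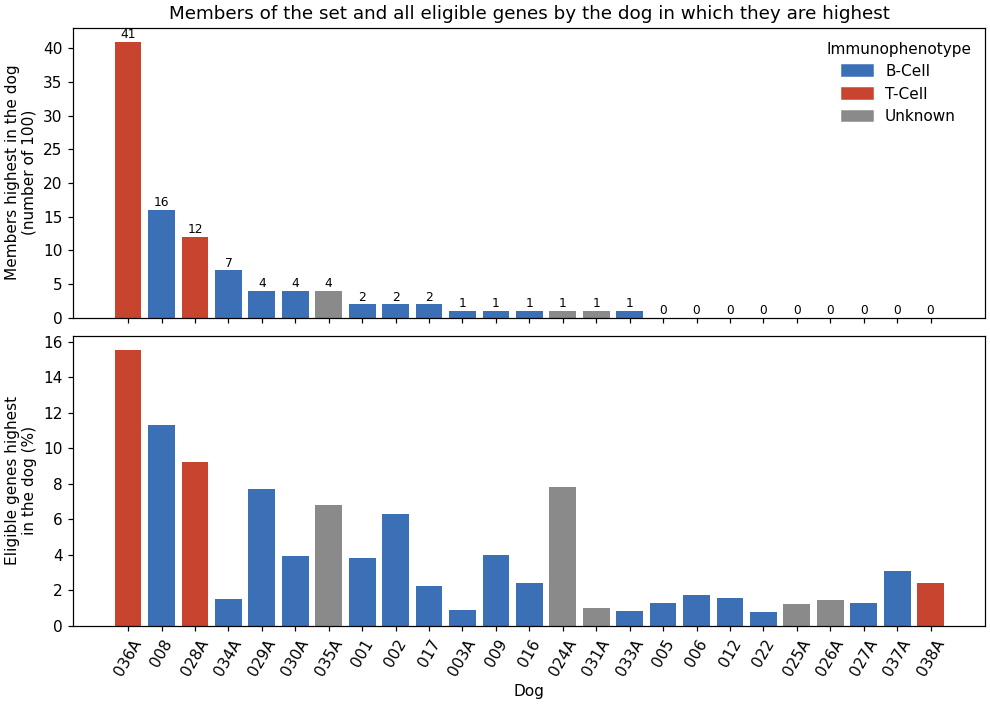
Bars in the upper panel give, for each of the 25 dogs, how many of the 100 members were highest in that dog, and bars in the lower panel give the percentage of all 6361 eligible genes highest in that dog. Colours mark the immunophenotype. Dog 036A leads both panels with 41 members and 15.5% of eligible genes, while dog 034A holds 7 members and 1.51% of eligible genes.

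Some dogs were highest for many genes of any gap, and that background differs from dog to dog. Dog 036A was highest for 15.5% of the eligible genes, dog 008 for 11.3% and dog 028A for 9.23%. Dog 034A was different, since it was highest for 1.51% of eligible genes and yet for 7 members. Dog 024A went the other way, with 7.80% of eligible genes and 1 member. Over the eligible genes outside the set, the correlation of each dog's log2(CPM + 1) with the median of the other dogs was 0.628 in dog 036A, 0.7003 in dog 028A, 0.805 in dog 029A and 0.831 in dog 008. The other 21 dogs were between 0.887 (dog 002) and 0.960 (dog 033A), with dog 034A at 0.932. Dogs 036A, 028A, 029A and 008 were thus the lowest also in eligible genes outside the set, and dog 034A was not. These genes were still chosen by the CPM of their highest dog, however. A dog that alone brings many genes past that minimum can have a lower correlation for this reason. The part of this was not tested.

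**Figure D2:**
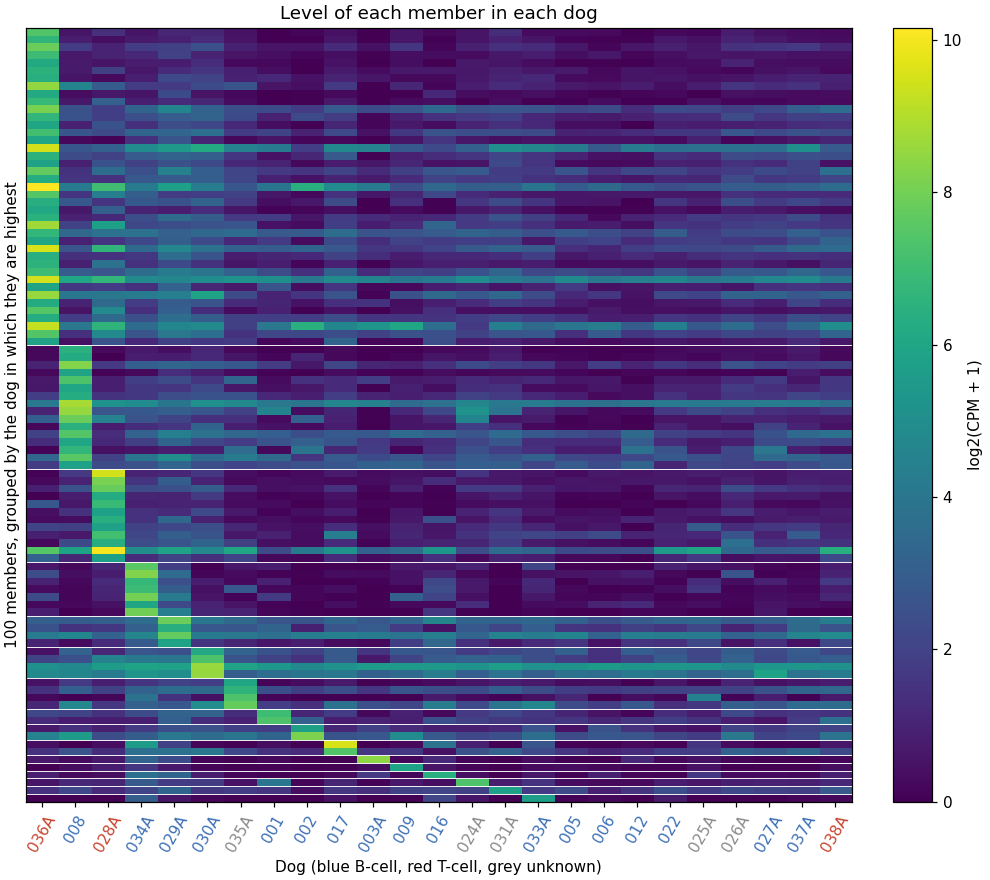
Each row is 1 of the 100 members and each column 1 of the 25 dogs, with colour for log2(CPM + 1) and white lines between the blocks of members highest in the same dog. The blocks form a diagonal of single bright columns, and dogs 029A, 030A and 028A are the most frequent second-brightest columns.

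Second place was concentrated as well. Dog 029A was second-highest for 30 members, dog 030A for 19 and dog 028A for 18. Dogs 029A and 030A are both B-cell dogs with short survival in the odd series, and dog 029A has the smallest library, in which 3 counts amount to 0.313 CPM. TMM scaling divides the CPM of each dog by a factor, and the rule did not use it. The factor was 1.32 in dog 029A, the largest of all dogs, and 1.15 in dog 030A. With this scaling dog 029A was highest for 2 members and dog 030A for 3. Whether library size, scaling or RNA quality takes part in these second places was not tested. The paper chose only samples with a high RNA integrity number for sequencing, and the values of single dogs are not given in the sources used here. Without dogs 029A and 030A, 80 of the 100 genes met the same rule.

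Dog 036A, a T-cell lymphoma, had the largest block. Its 41 members had 56.2 to 1145 CPM in this dog (median 102.6) and summed to 0.873% of its counts. The largest gap of the block was that of ENSCAFG00000039819. It had 166 CPM in dog 036A (2076 counts, exact Clopper-Pearson 95% interval 159 to 173). Such intervals cover counting error only. The other T-cell dogs had 1.64 CPM (028A) and 0.205 CPM (038A), the 17 B-cell dogs 0 to 1.15 CPM (median 0.222), and the unknown dogs 0.511 (024A), 0.103 (025A), 0.724 (026A), 1.54 (031A) and 0.393 (035A) CPM. All 24 other dogs lay under 2 CPM. ENSCAFG00000000860 behaved differently and was shared in part by another T-cell dog. It had 756 CPM in dog 036A, 102.9 CPM in dog 028A and 10.8 CPM in dog 038A, against 1.09 to 24.9 CPM (median 5.83) in the B-cell dogs and 3.45 to 8.53 CPM in the unknown dogs. Dogs 036A and 028A lay above every B-cell dog, and dog 038A lay within the B-cell range.

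Across the block, the median level was 4.98 CPM in dog 028A and 1.59 CPM in dog 038A. The medians over members of the typical B-cell dog and the typical unknown dog were 1.37 and 1.54 CPM. Dog 028A was above all 17 B-cell dogs for 16 of the 41 members, and dog 038A for 1. Another T-cell dog was second-highest for 17 of the 41. The T-cell dogs also held each other's genes out of the set. With dog 036A left out, the same rule made dog 028A the highest for 52 of 100 genes in place of 12, and with dog 028A left out dog 036A was the highest for 70 in place of 41. Of the original members, 59 and 61 remained in these sets.

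Dog 028A, also a T-cell lymphoma, held 12 members, with 51.7 to 1052 CPM (median 101). ENSCAFG00000011322 had the largest gap of the whole set. It reached 703 CPM in this dog (11158 counts, 95% interval 690 to 716), while the other T-cell dogs had 0.0800 (036A) and 0.819 (038A) CPM, the B-cell dogs 0.115 to 2.22 CPM (median 0.499), and the unknown dogs 0.315 to 2.00 CPM. ENSCAFG00000029724 had 277 CPM in dog 028A, 0.160 CPM in dog 036A and 0.768 CPM in dog 038A. The B-cell dogs had 0.206 to 6.98 CPM of it (median 0.519) and the unknown dogs 0.197 to 0.868 CPM. For both genes dog 038A lay within the range of the B-cell dogs and dog 036A below all of them, at 1 or 2 counts. In the block as a whole dog 036A was above all B-cell dogs for 3 of the 12 members.

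Dog 008 held the largest block outside the T-cell label, 16 members with 55.3 to 451 CPM (median 94.98). ENSCAFG00000039701 had 88.1 CPM (1983 counts, 95% interval 84.3 to 92.1). The other 16 B-cell dogs had 0 to 1.15 CPM of it (median 0.123), the T-cell dogs 0.160 to 0.205 CPM and the unknown dogs 0.197 to 0.629 CPM. In ENSCAFG00000025299 dog 008 had 309 CPM, against 0.568 to 8.86 CPM (median 2.29) in the other B-cell dogs, 2.21 (028A), 1.04 (036A) and 2.81 (038A) CPM in the T-cell dogs and 1.55 to 5.98 CPM in the unknown dogs. That no other dog reached dog 008 in these genes follows from the rule. Over its 16 members, the typical level was 1.12 CPM in the other B-cell dogs and 1.78 CPM in the T-cell dogs.

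Dog 034A held 7 members, with 63.1 to 298 CPM (median 186). ENSCAFG00000031273 had 186 CPM in this dog, and the other B-cell dogs had 0 to 3.22 CPM (median 0.0993). The T-cell dogs had 0.560 to 1.07 CPM of it and the unknown dogs 0 to 1.02 CPM. ENSCAFG00000023944 had 298 CPM in dog 034A, against 0.0437 to 10.8 CPM (median 0.285) in the other B-cell dogs, 0.756 (028A), 4.32 (036A) and 1.02 (038A) CPM in the T-cell dogs and 0 to 5.21 CPM in the unknown dogs. In the other B-cell dogs the typical CPM of this block was the lowest of the 4 blocks, at 0.241. In dog 036A it was 0.800 CPM, above the 0.600 CPM of the block of dog 028A. CPM is not corrected for gene length, and the members of this block had short implied lengths (below), so these values do not rank the blocks. Dog 029A was second for 6 of the 7 members and dog 033A for the other.

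**Figure D3:**
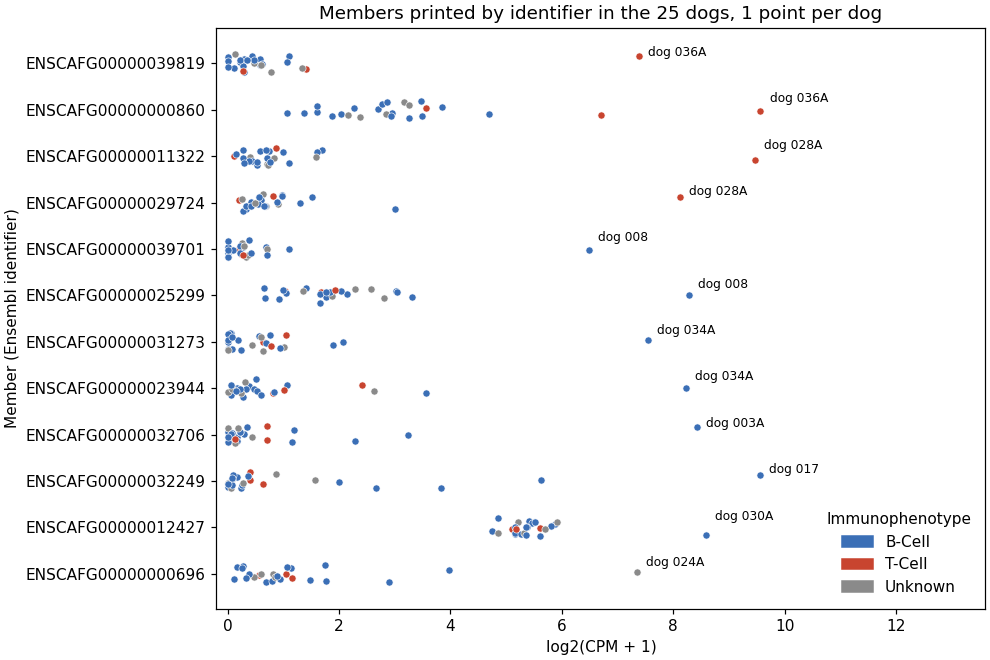
Each row is a member printed by identifier and each point a dog, coloured by immunophenotype, on the log2(CPM + 1) scale, with the highest dog named and points shifted vertically at random for display. In every row the named dog stands alone on the right, as the rule requires. In ENSCAFG00000000860 the T-cell dog 028A lies between it and the rest, and in ENSCAFG00000012427 the other dogs sit between 25.7 and 59.5 CPM.

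The 24 members of the remaining 12 dogs included some of the highest single values. ENSCAFG00000032249 had 752 CPM in dog 017 (B-cell). Dog 034A followed with 48.1 CPM and dog 016 with 13.2 CPM, and the median over the other 16 B-cell dogs was 0.101 CPM. ENSCAFG00000032706 had 342 CPM in dog 003A (B-cell), 8.48 CPM in dog 034A and a median of 0.1496 CPM over the other 16 B-cell dogs. The T-cell dogs had at most 0.563 and 0.640 CPM of these genes.

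Gene length was not used by the rule. The ratio of CPM to FPKM gives a rough length in kilobases for each gene, taken here as the median over dogs with at least 20 counts and without dogs 024A and 037A. This implied length had a median of 3.80 kb in the members and 3.60 kb in all eligible genes. It reached 46.1 kb in the members, and the ratio differed between dogs. A member of dog 008 had an implied length of 13.7 kb, although dog 008 itself had 76.4 CPM and 29.6 FPKM of it. The implied length is therefore not a measured transcript length, and short genes are those short by this median. Such genes were more frequent among the members. Of the 100 members 23 (23%) were under 1 kb, against 623 of the 6361 eligible genes (9.79%). They counted 9 among the 20 largest gaps.

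The short members were spread differently from the rest. All 7 members of dog 034A were under 1 kb (0.521 to 0.993 kb), while 5 of 41 were in dog 036A, 4 of 12 in dog 028A and 0 of 16 in dog 008. Dogs 029A and 035A held 1 each. Dogs 003A, 009, 016, 017 and 033A, all B-cell, also held 1 each, and in all 5 of these genes dog 034A was the second-highest dog. Levels of genes that differ in length can be compared only per length, that is in FPKM. On that scale the median of the other 24 dogs had a median of 0.453 FPKM over the 23 short members and of 0.247 FPKM over the 77 longer ones. In CPM, which is not corrected for length, the same medians were 0.252 and 1.99, in the opposite order. Among all eligible genes highest in dog 034A, 23 of 96 (24.0%) were under 1 kb, but higher shares occurred in dogs 027A (52.5%), 026A (49.5%), 033A (45.1%) and 025A (24.4%). These are counts of genes, with no test. The lengths are those that the FPKM calculation implies, and reads shared between overlapping genes or similar copies are uncertain, since the counting rule is not stated.

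Members also varied together, within and between blocks, in dogs that were highest for none of the 4 large blocks. Over the 21 dogs left after dogs 036A, 008, 028A and 034A were set aside, the median Pearson's r between pairs of members was 0.580 within the block of dog 036A (820 pairs), 0.543 in that of dog 034A, 0.445 in that of dog 028A and 0.326 in that of dog 008. Pairs from different blocks had median r values between 0.213 (dogs 008 and 034A) and 0.522 (dogs 036A and 028A), and all pairs of eligible genes 0.0274. Within the block of dog 008 r was lower than between this block and those of dogs 036A (0.417) and 028A (0.365), and within the block of dog 028A it was lower than between this block and that of dog 036A. In the blocks of dogs 036A and 034A r within the block was the higher. The points share library depth, and most members had few counts in these dogs. The 21 dogs also include dogs 029A and 030A, which were second-highest for 30 and 19 members. Dogs that are raised in many members can raise r both within and between blocks, and r without them was not computed. The rule used the second-highest value of each member, and the eligible genes as a whole were not chosen in this way. These values are therefore descriptions only.

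The FPKM table was made from the same reads and is not a second measurement, but it shows whether the outlying dog depends on how the reads were summarised. For 98 of the 100 members the highest dog was the same in FPKM. In these 98 the gap on the log2(FPKM + 1) scale had a median of 2.98 and a range of 0.33 to 7.52. It was at least 2 in 95 members. In 79 of the 98 it was smaller than the gap in counts, and the median difference over the 98, FPKM minus counts, was -0.14. The added 1 weighs more on lower values, and FPKM lie below CPM where the implied length exceeds 1 kb. A smaller gap on this scale therefore need not be a smaller ratio between the dogs. The highest dog was the same for all members of dogs 036A, 008 and 028A, and for 6 of the 7 members of dog 034A.

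**Figure D4:**
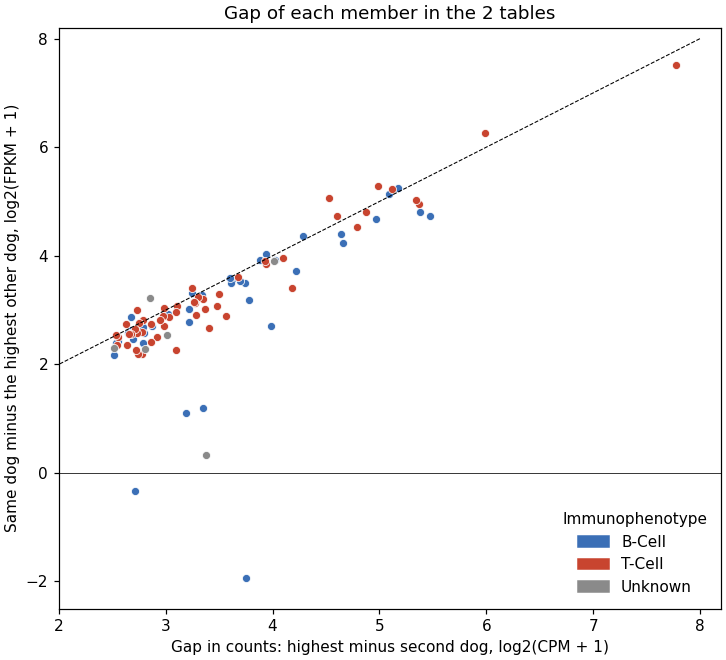
Each point is a member, with the gap in counts on the x axis and, on the y axis, the same dog's log2(FPKM + 1) minus that of the highest other dog. Points on the dashed line have equal gaps. Most points follow the line, and 2 points lie below 0, where another dog is higher in FPKM.

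The exceptions all involved dog 024A. In ENSCAFG00000030001 dog 034A had 63.1 CPM and dog 024A 1.44 CPM, but in FPKM dog 024A had 42.3 and dog 034A 10.3. In ENSCAFG00000030908 dog 033A had 51.5 CPM and dog 024A 0.511 CPM, while the FPKM were 92.1 and 116. In the opposite direction, ENSCAFG00000000696 was the only member highest in dog 024A. Its count of 3480 reads gave 162 CPM against 14.7 CPM in the next dog (001), but its FPKM was 4.91 against 3.71 in dog 001, a gap of 0.33. The other 2 members with a gap under 2 in FPKM belonged to dog 008. The larger of these, ENSCAFG00000030137, had 375 CPM in dog 008 and 35.9 CPM in dog 024A, and 59.7 against 25.3 in FPKM. Dog 037A was highest for no member in either table. Without dogs 024A and 037A the highest dog was the same in both tables for all 99 members left. The lead stayed small in FPKM for the first 2 exceptions, however. ENSCAFG00000030908 had 92.1 FPKM in dog 033A and 78.8 in dog 022, which had 12 counts against 929 in dog 033A. ENSCAFG00000030001 had 10.3 FPKM in dog 034A and 6.28 in dog 029A. Dog 024A is thus not the only column in which the tables differ for these genes.

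The T-cell and B-cell labels were then compared over all genes with edgeR's quasi-likelihood test, since the rule had used neither label. All 100 members were among the 21752 genes tested, and 53 passed at a Benjamini-Hochberg adjusted p-value under 0.05, all higher in T-cell. They were the 41 members of dog 036A and the 12 of dog 028A. Of all genes tested, 6.35% passed, and 5.67% passed as higher in T-cell. The direction of these 53 follows from their highest dog being a T-cell dog, and the count is not support for a T-cell difference. Their log2 fold changes ran from 2.73 to 8.61, with a median of 4.62.

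How much each call rested on the dog of highest level was measured by leaving that dog out. Of the 53 members, 8 passed without it, and 45 did not. In the fit without dog 036A, 5 of its 41 members passed (12.2%), against 0.961% of the 23406 genes tested. In the fit without dog 028A, 3 of its 12 passed (25.0%), against 2.76% of 23448 genes. In all 8 the second-highest dog was the other of these T-cell dogs. The rule used the second-highest value too, and the genes tested as a whole were not chosen in this way. These shares are therefore descriptions only. With dogs 028A and 036A both left out edgeR passed 0 members (4 at an unadjusted p-value under 0.05) and 0 of 25568 genes (518 unadjusted, or 2.03%), with the single T-cell dog left assumed to vary like the B-cell dogs. Without their own dog the log2 fold changes of the 53 ran from -1.62 to 3.96 (median 0.49), and 16 were below 0.

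The genes printed above cover this range. For ENSCAFG00000011322 edgeR gave a log2 difference of 8.61 with a standard error of 0.88 (adjusted p = 2.94e-06), which became -0.48 (standard error 0.82, adjusted p = 0.922) without dog 028A. ENSCAFG00000039819 had 7.59 (standard error 0.84, adjusted p = 6.01e-06), which became 1.57 (standard error 0.94, adjusted p = 0.671) without dog 036A. ENSCAFG00000000860 had 5.66 (standard error 0.59, adjusted p = 2.94e-06), and without dog 036A it stayed past the threshold at 3.21 (standard error 0.57, adjusted p = 0.00370). In the odd series alone, with 3 T-cell and 6 B-cell dogs, none of the 97 members tested passed in edgeR, against 0.0398% of all genes. At an unadjusted p-value under 0.05 there were 60, against 20.7% of all genes. DESeq2 passed 27 members, 21 of dog 036A, 4 of dog 028A and 1 each of dogs 008 and 030A (these 2 lower in T-cell), against 11.7% of all genes. It gave no p-value for 31 members, of which 28 were highest in a T-cell dog. By default DESeq2 can withhold a p-value where a single dog lies far from the rest of its class, and the part of this was not tested. With limma on FPKM 25 of 81 members tested passed, all of dogs 036A and 028A, against 16.4% of all genes.

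**Figure D5:**
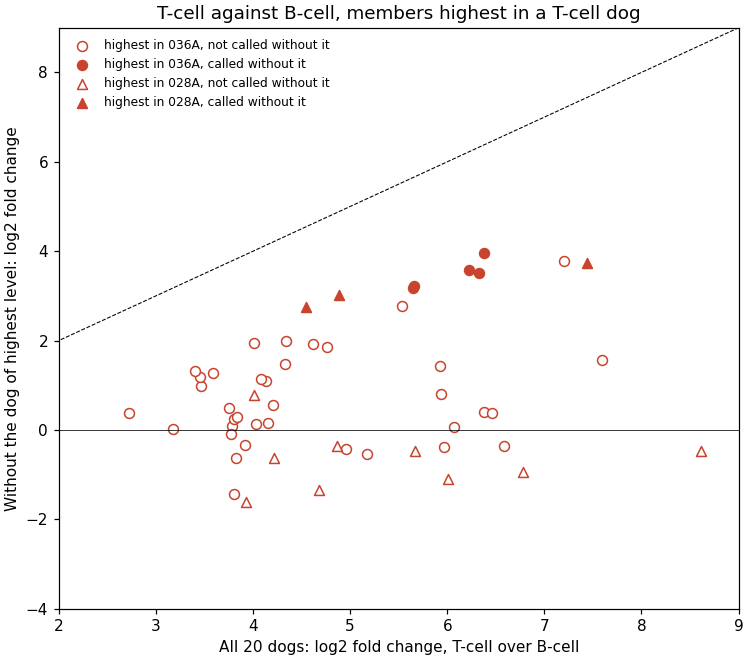
Each symbol is 1 of the 53 members highest in a T-cell dog (circles 036A, triangles 028A), with the edgeR log2 fold change of T-cell over B-cell in all 20 dogs on the x axis and without the dog of highest level on the y axis. Filled symbols passed an adjusted p-value of 0.05 without that dog. All lie below the dashed line of equality, and 8 are filled.

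The survival classes were compared in the same way over 18651 genes. There 2 of the 87 members tested passed the adjusted threshold, ENSCAFG00000011322 and ENSCAFG00000029724, and these were the only genes called (0.0107%). Both belong to dog 028A, a dog with short survival, which sets their direction. Their log2 differences, short over long, were 7.13 (standard error 1.11, edgeR adjusted p = 0.0134) and 5.74 (standard error 0.95, adjusted p = 0.0176), and without dog 028A they were 0.44 (adjusted p = 0.775) and 0.86 (adjusted p = 0.723). Without this dog 0 members and 0 genes passed in edgeR (24 members and 7.04% of all genes at an unadjusted p-value under 0.05). DESeq2 passed neither of them, with log2 differences of 0.43 (adjusted p = 0.684) and 0.81 (adjusted p = 0.503). It passed 1 member of dog 024A and 1 of dog 008 instead, against 0.622% of all genes. With limma on FPKM 0 of 79 members passed, against 0.0149% of all genes, and with the series as a covariate in edgeR 0 passed, against 0.00536%. The count of members called reached 8 without dog 009, against 0.182% of all genes. At the unadjusted threshold 32 members passed, against 9.36% of all genes. Of the 26 members tested that were highest in a dog with short survival, 25 did so, all with positive log2 fold changes (median 2.51). Of the 61 highest in a dog with long survival, 7 did so, and all 61 had negative ones (median -1.28). In edgeR the sign of every member tested thus followed the class of its highest dog, which the choice of members brings about. It did not in DESeq2, where 8 of the 26 and 55 of the 61 had the opposite sign and the median over the 87 members was 0.51 in place of -1.08. DESeq2 was run with its default handling of outlying counts, which can replace a value far from the rest of its class. A lone high dog of the kind that the rule selects can be such a value. How far this took part was not tested. The member of dog 008 that DESeq2 called was higher in short survival, although dog 008 had long survival. In limma on FPKM 26 of 57 members highest in a dog with long survival had the opposite sign, as had 8 of 61 with the series as a covariate in edgeR. The filter on low counts removed 13 members, 11 of them highest in a dog with long survival.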

How the data were processed

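RNA from 25 aspirates was sequenced as single reads of 75 bases, aligned by the authors with HISAT2 2.1.0 and quantified with StringTie 1.3.3 on the dog genome CanFam3.1 (versions from the submitters' processing notes). The raw counts per gene were deposited without normalization, and the counting rule and strand setting are not given in the sources used here. The FPKM values were deposited as calculated by the authors with Ballgown. The number of columns not used was 0.

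CPM, gaps and lengths were computed with Python 3.11.15 and pandas 2.3.3. Genes kept by filterByExpr were compared with edgeR 4.0.16 (TMM, glmQLFTest, R 4.3.3), Benjamini-Hochberg adjustment and a threshold of 0.05. DESeq2 1.42.0 and limma 3.58.1 on log2(FPKM + 1), for genes averaging 1 FPKM or more, were alternatives. The scripts were tested on simulated counts. With 200 genes changed 4-fold, edgeR recovered 99% of them in the survival design (18233 genes) and 60% in the T-cell design (20393 genes). Genes that had not been changed made up 3.41% and 1.64% of its calls. With DESeq2 they made up 10% and 21.3% of the calls, above the 5% aimed at. In this simulation a changed gene was changed in every dog of a class, and all genes had the same dispersion. It therefore does not show how often a gene raised in a single dog is called. Totals of 9592039 to 28979456 counts limit the precision of low values.

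The members and lists were chosen with earlier results of these data known. The rule for named genes took the 20 members with the largest gap, the 3 with the largest gap in each dog with at least 5 members, up to 5 whose highest dog differed in FPKM, up to 5 called in each fit by adjusted p-value, and 3 genes on each side of the edge of the set. Since no identifier matched a symbol, 2 per large block and a few others are printed, some of them outside this rule and then chosen after their values were seen. The fixed marker lists could not be used.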

Additional observations from a re-analysis of the deposited data

Results flagged for a closer look

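In groups of 4 to 10 dogs, the highest or lowest dog was compared with its nearest neighbour relative to the range of the group, in 18 combinations of measure and group. By chance about 1 in 20 would stand apart, and 6 did, but counts of members were made by the choice of genes and are not independent of it. Dog 035A stood apart among the 5 dogs of unknown immunophenotype, as highest for 4 members (next 1). Dog 028A stood apart among the 8 dogs with short survival, as highest for 12 members (next 4). Dog 008 stood apart among the 10 dogs without a suffix letter in their identifier, as highest for 16 members (next 2) and for 720 eligible genes (next 401). Dog 024A stood apart in the correlation of its counts with its FPKM values over the members, 0.516, both among the dogs of unknown immunophenotype (next 0.840) and among those with short survival (next 0.896).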

How the results depend on the processing

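Under other settings of the rule, 55 of the 100 members remained with a minimum of 100 CPM and 46 with the rule applied to FPKM, where dog 034A was highest for 18. Between 59 (without dog 036A) and 100 remained when each dog was left out, with 61 without dog 028A and 84 or more otherwise. Dogs highest for at least 1 member numbered 12 to 17 in those fits. With a pseudocount of 0.1, 100 of the 100 remained, with TMM scaling 95, with a minimum of 20 CPM 69, and, added after seeing the data, without dogs 029A and 030A 80.

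Between short and long survival the 2 genes called became 116 with DESeq2, 10 without a filter, 1 with the series as covariate and 4 without dogs 024A and 037A. With limma the 2 members called became 0 (3 of 79 unadjusted, against 9.98% of all genes). They became 0 also with the series as covariate (27 of 87 unadjusted, against 5.60%). When each dog was left out, the genes ranged from 0 (without dog 028A) to 63 (without dog 036A). The members ranged from 0 (without dog 028A) to 8 (without dog 009, against 0.182% of all genes). They numbered 7 without dog 036A (against 0.339%), 6 without dog 001 (0.0521%) and 5 without dog 024A (0.0684%).
Of the genes tested for T-cell against B-cell, the 1382 called became 2551 with DESeq2 (1555 higher in T-cell, against 1234 of the 1382), 911 without a filter, 2222 with limma (969 higher), 8 in the odd series alone and, added after seeing the data, 0 without dogs 028A and 036A. The 53 members called became 27 with DESeq2, 25 with limma, 0 in the odd series and 0 without dogs 028A and 036A. When each dog was left out, the genes ranged from 225 (0.961%, without dog 036A) to 2747 (11.9%, without dog 038A). The members ranged from 17 (without dog 036A) to 53. The log2 fold change of ENSCAFG00000039819 turned to -0.60 without dogs 028A and 036A, and that of ENSCAFG00000011322 ranged from -0.48 without dog 028A to 9.10 without dog 036A. Apart from the dogs left out, the causes were not tested. No paired analysis was possible because each dog gave 1 sample. Members with under 1 CPM in most dogs rest on few counts there.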
